A study of Mus musculus with 4 samples.

Results

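The genes described here are those whose level moved by a different amount on re-stimulation through the T-cell antigen receptor (TCR) in WT T cells and in those that the labels call Bach2-deficient (KO). For each gene the response of a genotype was the log2 signal on its re-stimulated array minus that on its array without re-stimulation, each array first scaled to its own 75th percentile, and the WT response was subtracted from the KO response. A gene was a member where this difference was at least 1 on the log2 scale in either direction, which is 2-fold. Of 10810 genes whose probe was well above background on all 4 arrays, 521 (4.82%) were members, 324 with a lower and 197 with a higher response on the KO arrays. Those counts are 3.00% and 1.82% of the genes measured, and they are the shares against which the gene groups below are read. The array names 18749 genes, and those with a probe too dim on at least 1 array have no difference here. Throughout, rose and fell mean at least 2-fold between single arrays, a rule of size and not a test.

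The cells came from C57BL/6J mice and were naive CD4 T cells of the spleen, labelled as female. The WT controls are described in the study as mice with the CD4-Cre transgene alone, and the KO mice carried Bach2 flox/flox with the same transgene, in which the Cd4 promoter drives Cre, so that the gene is removed in cells that have expressed Cd4 during their development. Both genotypes were activated for 2 days with an immobilized anti-TCR-β mAb at 3 µg/ml and an anti-CD28 mAb at 1 µg/ml, then kept for 3 more days with IL-2, given as 2.5 ng/ml in the sample labels, and were collected either as they were, WT (-) and KO (-), or after 4 h on the anti-TCR-β mAb without added IL-2, WT (+) and KO (+). Each of the 4 conditions has 1 array, hybridized on 1 slide and read in 1 scan. No test could therefore be made, no difference below has a replicate check, and differences between mice, cultures or hybridizations cannot be told apart from the genotype or the re-stimulation.

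A T cell that meets its antigen again turns on, within hours, a layer of early transcription factors, cytokines, chemokines and feedback inhibitors, and turns off genes of the resting state. Interferon-γ made in that burst acts on the same cells, in part through Irf1, and induces a second layer, the interferon-stimulated genes, which include the guanylate-binding proteins and the Oas and Ifit families. Bach2 is a repressor with a basic leucine zipper that binds sites of the AP-1 type, which Batf, Fos and Jun proteins also recognise, and it is known for holding back effector genes in T cells. The comparison asks how that layer of transcription differs between effector cells of WT mice and of mice with this deletion. Since Cre acts during T cell development, a need for Bach2 at the effector stage cannot be told apart from earlier effects.

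All 12 T cell markers on the list were well above background on every array, and their median difference of the responses was 0.10. Cd79a, Ms4a1 and Pax5 of B cells, Lyz1, Lyz2, Itgam, Elane and S100a8 of myeloid cells and Ms4a2, Mcpt4 and Tpsb2 of mast cells were above background on none. Of 11 mast cell and basophil markers on the array, 3 and 2 were above background on the WT arrays and 8 on each KO array, and of 12 myeloid markers 4, 2, 6 and 5 were, in the order WT (-), WT (+), KO (-) and KO (+). For 8 B cell markers the counts were 5, 3, 4 and 5, and for 8 NK cell markers 4, 3, 3 and 3. The counts hide differences of level. Summed signals relative to each array's 75th percentile were 1.48, 0.675, 4.16 and 3.68 for the B cell markers. They were 0.668, 0.465, 2.05 and 1.38 for the myeloid and 3.70, 3.12, 3.16 and 2.63 for the NK cell markers. Of the B cell markers, Jchain gave 39.2, 34.5, 970 and 858, whereas Cd79b gave 525, 97.4, 539 and 135. Of the mast cell and basophil markers, Cpa3 gave 8.44, 3.12, 339 and 195 and Mcpt8 gave 8.48, 8.73, 309 and 333. Both were above background on the KO arrays alone, whereas Cd200r3 was above it on all 4 arrays, with 41.7, 163, 55.2 and 233. Of 4 Y-linked genes none was above background on the WT arrays and 3 were on each KO array, which goes against the label female for the KO cells. Xist, the RNA of the inactive X chromosome, was well above background on all 4 arrays, with 9524, 5221, 4623 and 2585. The study's methods name mice of both sexes for cultures, the make-up of the KO cells by sex is not settled, and sex and genotype cannot be told apart. The Bach2 probe (NM_001109661) gave signals of 2932, 3309.7, 2633 and 3079.7 in the same order, so it gave no check of the genotype label. Bulk RNA cannot tell fewer cells of a type from less RNA per cell. No marker measured on all arrays differed by 2-fold in its response at its brightest probe. The 3 other probes of Xist had differences of the responses from -1.17 to -0.12. The share of probes well above background was 53.6% to 54.0%, the 75th percentile of the signal was 313 to 436, and no spot was saturated. The same order of arrays is used for every set of 4 signals below, which are the deposited background-subtracted intensities before scaling, so that a log2 difference follows from them only after the scaling. A single value in parentheses after a gene or its signals is its difference of the 2 responses, KO minus WT, on the log2 scale.

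The 2 responses had much in common. Across the 10810 genes they had a Pearson r of 0.899 (a description, since genes are not independent replicates, and the responses share no array), and 829 genes rose and 1048 fell at least 2-fold in both genotypes. The median difference over all genes was -0.003 and its SD 0.466, and 8901 genes (82.3%) had a difference under 0.5. The members lay on both sides of this common response. Rises were the more unequal part. Of 1154 genes that rose at least 2-fold on the WT arrays, 181 (15.7%) had a KO response lower by at least 2-fold (damped rises), and 77 of 1073 rises on the KO arrays (7.18%) were at least 2-fold larger than on the WT arrays (amplified rises). Of 1465 falls on the WT arrays 91 (6.21%) were damped, and of 1427 falls on the KO arrays 96 (6.73%) were amplified. A further 74 members were past 2-fold in neither genotype, and 2 moved past 2-fold in opposite directions. When normexp background correction (offset 50) and quantile normalization together replaced the processing used here, 179 genes were lower and 87 higher. Single genes were followed there only if the naming rule given with the processing picked them. Where such a member described below came within 2-fold, other than those at the limit, that value is given too. Members given for contrast, among them Cd274, Icos, Zbtb32, Lss and Dhcr7, and most genes under other observations were not followed, so a missing value says nothing for them.

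**Figure D1:**
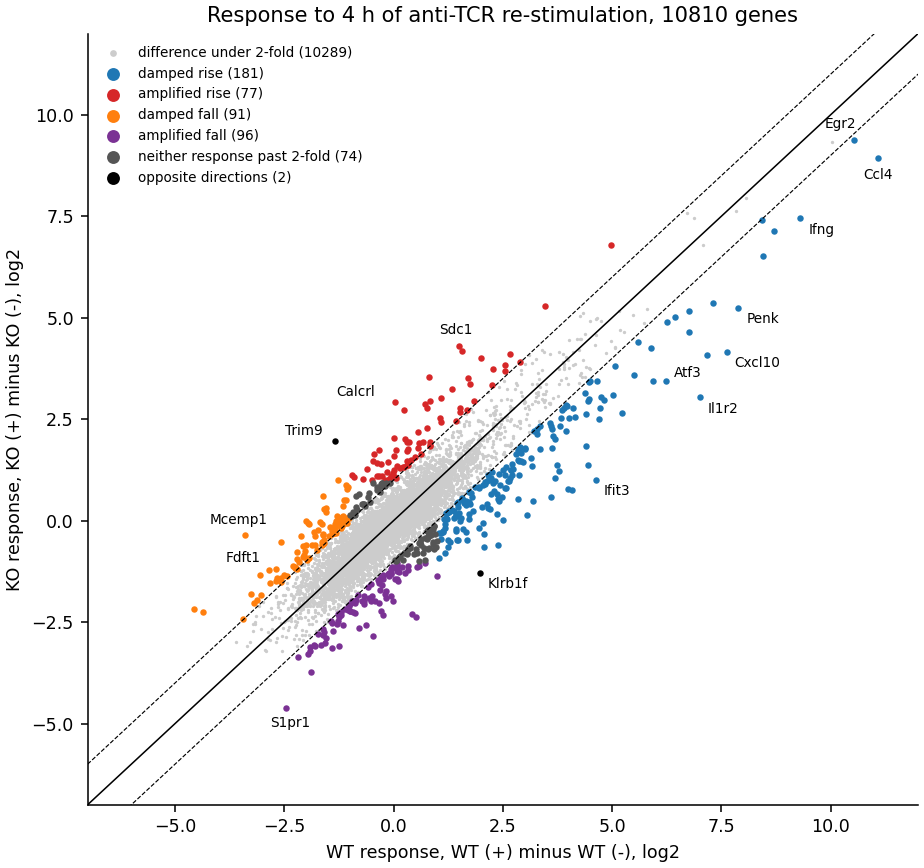
Response of each of 10810 genes on the WT arrays (x axis, log2) and on the KO arrays (y axis, log2), 1 array per condition. The solid line marks equal responses and the dashed lines a 2-fold difference. Damped rises (181 genes, blue) extend along the whole range of WT rises, among them Il1r2, Ifit3, Cxcl10, Penk and Ifng.

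More of the damped rises differed between the genotypes before re-stimulation than after it. Their median WT response was 2.57 and their median KO response 0.98, and 91 of the 181 changed by less than 2-fold on the KO arrays. Before re-stimulation 97 of them were at least 2-fold higher on the KO array and 2 were lower, with a median genotype difference of 1.05. After it 52 were at least 2-fold lower on the KO array and 16 higher, with a median of -0.38. Thus 80 genes were higher in the KO cells beforehand and within 2-fold afterwards, 49 were within 2-fold beforehand and lower afterwards, and 33 were within 2-fold at both times. Amplified falls had the other form. Of 96, 55 were within 2-fold beforehand and lower on the KO array afterwards, and 12 were higher beforehand and within 2-fold afterwards. Since the WT (-) array enters both the WT response and the genotype difference before re-stimulation, the sum of these parts is fixed by the rule, and the counts describe how each difference was made up.

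**Figure D2:**
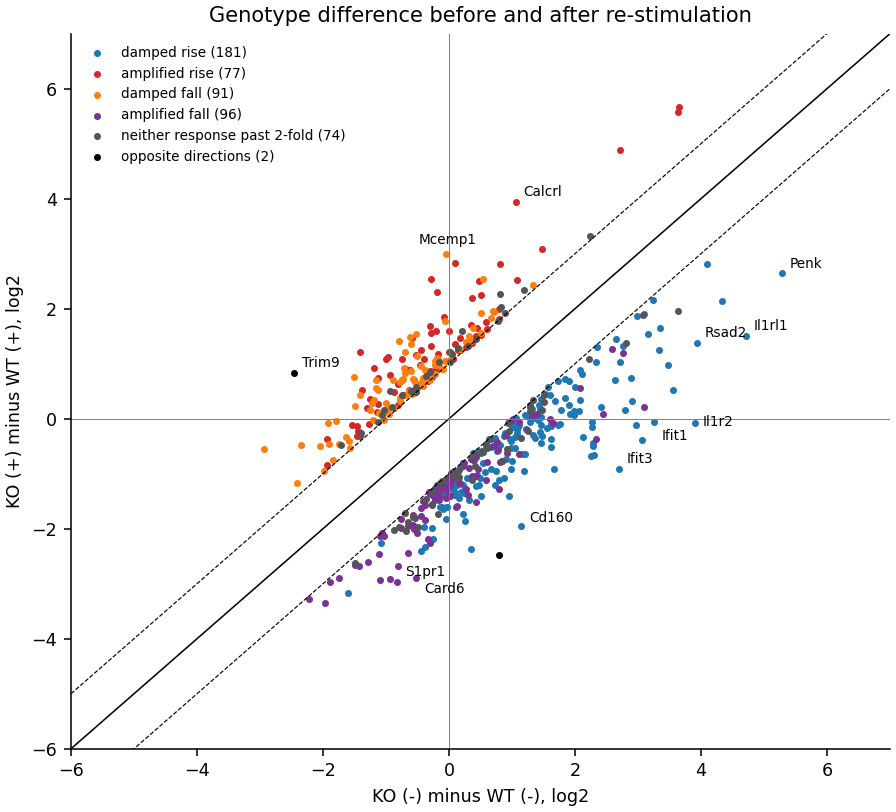
Genotype difference before re-stimulation (x axis, KO (-) minus WT (-), log2) and after it (y axis, KO (+) minus WT (+), log2) for the 521 members, coloured by class. The dashed lines are the 2-fold limits of the rule, so no member lies between them. Il1r2 and Ifit1 lie far to the right near 0 on the y axis, higher on the KO array beforehand (3.90 and 3.26) and level afterwards (-0.07 and -0.06), whereas Card6 lies below (-0.52 beforehand and -2.89 afterwards).

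The lowest difference of all was that of Il1r2, which encodes a decoy receptor for interleukin-1. Its signals were 22.9, 2122, 341 and 2278, so that it started low in WT cells, started higher in KO cells and ended at about the same level in both. The responses were 7.01 in WT and 3.04 in KO cells, a difference of -3.97. Il1rl1, which encodes the IL-33 receptor ST2 of Th2 cells and mast cells, gave 55.3, 629, 1438 and 2006. It was higher on the KO array at both times, by 4.71 and 1.50 on the log2 scale, and its responses were 3.99 and 0.78 (difference -3.21). The mast cell and basophil markers counted above had higher summed scaled signals on the same KO arrays (0.583, 1.57, 3.50 and 6.08). Their part in the Il1rl1 signal was not tested. Cd160, a receptor of activated T cells and NK cells for the ligand HVEM, gave 40.7, 4212, 89.4 and 1228 (difference -3.10). Unlike Il1r2, it ended below the WT level. Serpinf1, which encodes a secreted protein of the serpin family, gave 63.1, 553, 737 and 897 and was close to its full level in KO cells before re-stimulation (difference -3.03).

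**Figure D3:**
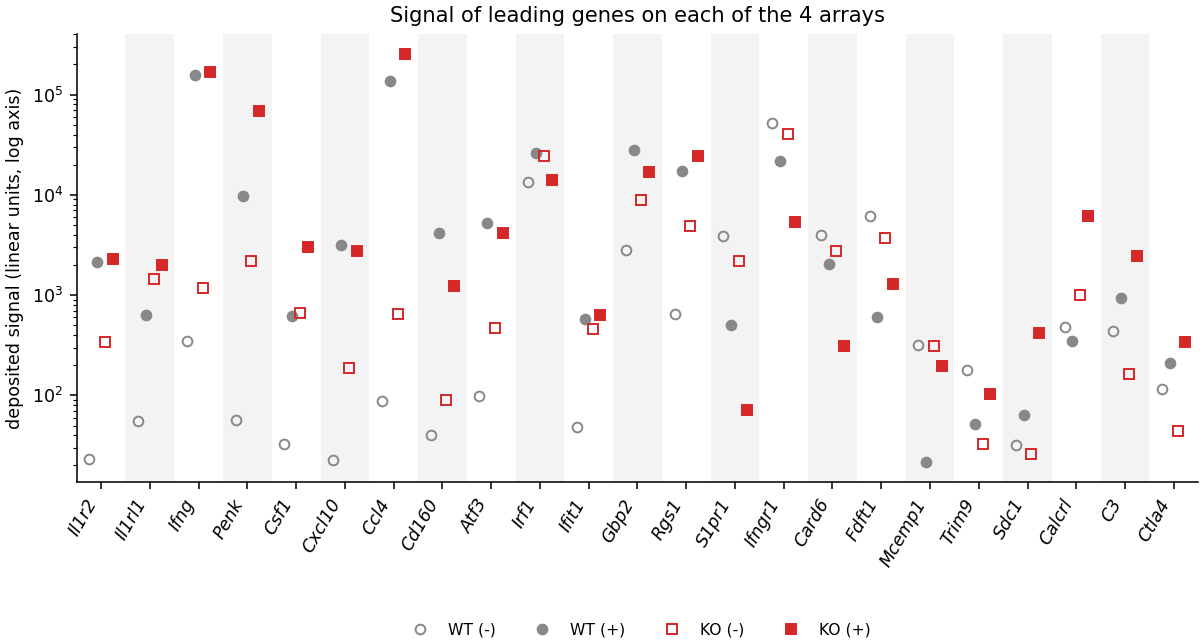
Deposited signal of 23 named genes on each array (log axis, 1 array per condition), with open symbols before and filled symbols after re-stimulation, grey circles for WT and red squares for KO. In Il1r2, Ifit1, Csf1 and Penk the open red square lies well above the open grey circle, while in S1pr1 and Card6 the filled red square lies below all other symbols of the gene.

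Cytokines and chemokines were among the largest rises in both genotypes. Of 17 effector cytokines measured, the responses of 4 were lower and of 2 were higher on the KO arrays, with a median difference of -0.06 that lay above 0 without the filter on dim probes. Penk, which encodes the precursor of enkephalins, gave 57.1, 9703, 2212 and 68196 and rose by 7.89 in WT and 5.25 in KO cells (difference -2.64). Its KO level was above the WT level at both times although its response was smaller. Csf1, the macrophage growth factor, followed the same order with 33.0, 614, 663 and 3053 (difference -2.20, but -0.76 with normexp and quantile normalization). Ifng, which encodes interferon-γ, gave 349.9, 158625, 1175 and 167603. It had responses of 9.30 and 7.46 and a difference of -1.85, and a second Ifng probe gave -1.45. The 2 re-stimulated arrays differed by -0.09 for Ifng, and the arrays before by 1.75. Tgfb3 gave 229, 147, 715 and 156 and was the one amplified fall of the list (-1.73). Il18 gave 19.1, 87.0, 40.2 and 561 and was an amplified rise (1.43), close to background on WT (-). Il19, of the IL-10 family, gave 156, 33.4, 66.4 and 45.9 and was a damped fall (1.51, but 0.76 with normexp and quantile normalization).

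Of 14 chemokine and chemokine receptor genes, 3 had a lower response and none a higher one, with a median of -0.38 that lay just above 0 among the brighter genes alone. Cxcl10, which attracts Cxcr3-bearing T cells and is itself induced by interferon-γ, gave 22.6, 3185, 188 and 2741 (difference -3.45). Ccl4 had the largest response of these genes, with 87.0, 136088, 641 and 254794, and rose by 11.09 in WT and 8.93 in KO cells (difference -2.16). Its KO level after re-stimulation was above that of WT. Xcl1 gave 39.3, 41492, 56.6 and 30561 (difference -1.15, and -0.87 with normexp and quantile normalization). In all 3 the WT array before re-stimulation carried the lowest signal of the 4.

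Interferon-stimulated genes were the group in which damping was most frequent among the 23 lists described. Of 45 genes listed 41 were measured, 26 of them (63.4%) had a lower response on the KO arrays against 3.00% of all genes, none had a higher one, and 40 of 41 lay below 0. The median difference was -1.45, made up of a median response of 2.20 in WT and 0.47 in KO cells. It lay between -1.52 and -1.36 in the alternatives. Before re-stimulation all 41 genes were higher on the KO array, 21 of them at least 2-fold, with a median of 1.03. After it the median was -0.19, and 37 of 41 were within 2-fold. Over all genes measured the median genotype difference was -0.006 before and 0.013 after re-stimulation. Of the 181 damped rises 25 were on this list and 156 were not.

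By family, all 6 Gbp genes, all 5 immunity-related GTPases and all 3 Ifit genes measured had a lower response by 2-fold or more, and 3 of 5 Oas genes did. The Gbp genes, which encode guanylate-binding proteins that attack the compartments of intracellular microbes, had differences from -2.97 to -1.34. Gbp6 gave 704, 2627, 3462 and 1869, so that its level went up in WT cells and down in KO cells (responses 2.38 and -0.59). Gbp2 gave 2828, 28025, 8901 and 16753 (difference -2.58), with a KO response of 1.21. Iigp1, a GTPase of the same defence, gave 1980.1, 11803, 9359 and 8321 and a KO response of 0.13 against 3.06 in WT cells. Irgm1 had a difference of -1.85 at one probe and -1.89 at another.

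Ifit1, which encodes a protein that binds viral RNA, gave 48.2, 583, 459 and 629 (difference -3.32). Its relative Ifit3 gave 192, 3400.0, 1241 and 2027 (difference -3.62). Beforehand the KO array was the higher one in both, by 3.26 for Ifit1 and 2.70 for Ifit3, and afterwards the genotype differences were -0.06 and -0.92. Oasl2, of the family of oligoadenylate synthetases, gave 265, 4122, 2059.9 and 4318 (difference -3.07). Oas2 gave 309, 2009.6, 1488 and 1676 (difference -2.71). Rsad2, which encodes the antiviral enzyme viperin, gave 41.2, 623, 628 and 1819. Its KO level was the higher one at both times (3.94 and 1.37), although its difference of responses was -2.57. Isg15, a ubiquitin-like modifier, was likewise higher at both times with 1421, 13182, 9259 and 30454 (difference -1.68).

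Some genes of the list had like responses. Irf7, a factor that drives type I interferon genes, had -1.62, while Stat2 (-0.88) and Irf9 (-0.77), both factors of the type I interferon response, had differences within 2-fold. Usp18 (-0.43), Isg20 (-0.29), Ifi35 (-0.03) and Bst2 (0.05) had small differences, as did Ifih1, a sensor of viral RNA, which rose by 3.25 in WT and 3.15 in KO cells. The 3 genes of antigen processing, Tap1, Psmb8 and Psmb9, had differences between -0.58 and -0.40. Ifngr1, the ligand-binding chain of the receptor for interferon-γ, is not on this list and gave 52070.3, 21562, 40942 and 5336. Its responses were -0.79 in WT and -2.64 in KO cells (-1.85), and the genotype difference was -0.34 before and -2.19 after re-stimulation.

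**Figure D4:**
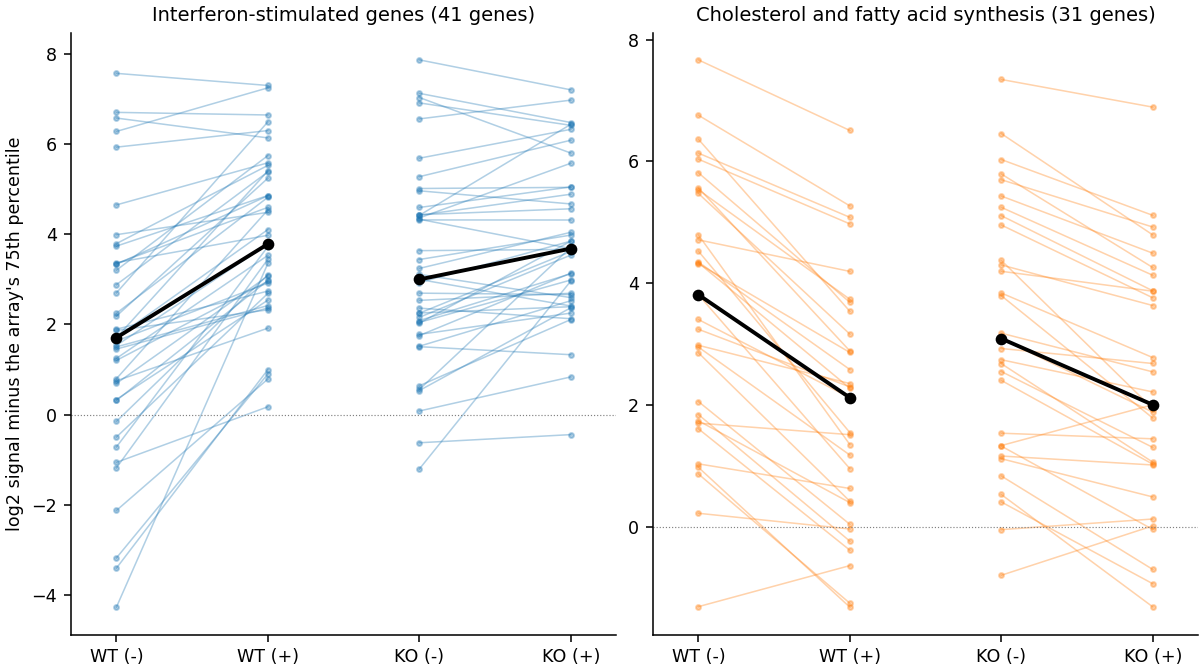
Level of each gene on the 4 arrays (y axis, log2 signal minus the array's 75th percentile), with the 2 arrays of a genotype joined by a line, for 41 interferon-stimulated genes (left) and 31 genes of cholesterol and fatty acid synthesis (right). Black lines join the medians. The median rise of the interferon-stimulated genes was 2.20 in WT and 0.47 in KO cells and the KO cells started higher, and the median fall of the synthesis genes was -1.77 in WT and -1.06 in KO cells.

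Promoter letters were read for these genes from RefSeq windows of the GRCm38.p6 build, which run from 250 bases before to 50 bases after each annotated start. Windows were found by symbol for 8735 of the 10810 genes, 31 of the 41 interferon-stimulated genes and 148 of the 181 damped rises. The AP-1 letters TGANTCA, which read the same on both strands, were in a window of 17 of the 148 damped rises (11.5%) and of 503 of the 8735 genes measured (5.76%), and in 7.81% of all 32851 windows of the table. Of the 768 other WT rises with a window 55 (7.16%) held them, and so did 5 of 63 amplified rises, 7 of 74 damped falls and 5 of 65 amplified falls. Among the damped rises not on the interferon list it was 11 of 131 (8.40%), and among the interferon-stimulated genes 8 of 31 (25.8%). These are descriptions of letters in short windows, with no test, and say nothing of binding.

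The letters GAAANNGAA, the core of the interferon response element, were searched on both strands as a motif chosen after the values were seen. They were in a window of 19 of 31 interferon-stimulated genes (61.3%), of 755 of 8735 genes measured (8.64%) and of 8.56% of all windows. Within the interferon list they were present in 12 of 18 genes with a lower KO response and in 7 of 13 of the others. The stretches that hold the matches are printed for the 5 listed genes of lowest difference that had such a match before the start. The match was the condition for printing, so the stretches do not show what the damped genes share. Oasl2, Gbp6, Iigp1 and Oas2 had lower differences than Gbp2 and Rsad2 but were passed over. No window holding these letters was found for them. The printed stretches run 5′ to 3′ on the gene's strand, with matches to GAAANNGAA on either strand and to TGANTCA in capitals, and no match of one overlaps the other. Ifit3 is at chr19:34583359-34583494 (+ strand), Cxcl10 at chr5:92348942-92349117 (- strand), Ifit1 at chr19:34640765-34640828 (+ strand), Gbp2 at chr3:142620546-142620628 (+ strand) and Rsad2 at chr12:26456518-26456586 (- strand), all within the 250 bases before the annotated start.
Ifit3: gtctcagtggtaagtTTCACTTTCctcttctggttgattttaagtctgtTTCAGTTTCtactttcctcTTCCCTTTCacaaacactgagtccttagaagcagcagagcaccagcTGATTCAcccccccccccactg
Cxcl10: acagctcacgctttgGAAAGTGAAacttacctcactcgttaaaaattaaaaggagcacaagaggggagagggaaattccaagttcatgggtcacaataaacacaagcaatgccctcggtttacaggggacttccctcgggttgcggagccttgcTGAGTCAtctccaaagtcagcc
Ifit1: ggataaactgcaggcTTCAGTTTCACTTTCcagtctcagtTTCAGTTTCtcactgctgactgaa
Gbp2: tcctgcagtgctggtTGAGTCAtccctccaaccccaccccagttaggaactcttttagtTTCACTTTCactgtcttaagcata
Rsad2: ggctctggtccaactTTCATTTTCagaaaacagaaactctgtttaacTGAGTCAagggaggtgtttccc
Ifit3 and Ifit1 each held 3 matches to GAAANNGAA, of which the 2 farther from the start in Ifit1 overlap each other, and the other 3 genes held 1. The match nearest the start lay 102 bases before it in Ifit3, 213 in Cxcl10, 84 in Ifit1, 58 in Gbp2 and 119 in Rsad2. The AP-1 letters were in the same stretch in Ifit3, Cxcl10, Gbp2 and Rsad2, at 56, 74, 102 and 87 bases before the start, and not next to the other matches. They were not found in the window of Ifit1.

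Transcription factors of the early response were unevenly damped. Of 21 measured, 4 had a lower and 1 a higher KO response (median -0.17). Atf3, a stress-induced factor of the ATF family, gave 97.5, 5264, 473 and 4193 (difference -2.79) and started higher in KO cells. Nr4a2, an orphan nuclear receptor, gave 34.0, 8515, 48.2 and 3604 (difference -1.93) and instead ended lower. Egr1, a zinc finger factor induced by Ras signalling, gave 64.8, 5032, 178 and 5232 (-1.58) and ended level. Crem, a modulator of cyclic AMP responses, gave 1392, 3365, 3387 and 3647 (-1.35). Egr2, by contrast, rose by 10.04 and 9.33, a difference under 2-fold, and Klf10 was the one with a higher KO response, with 1563, 677, 1609 and 1735 (1.14).

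In the AP-1 and Batf family, whose members share binding sites with Bach2, 3 of 20 had a lower response (Atf3, Fos and Fosl2) and 1 a higher one (median -0.31). Fos gave 53.4, 830.2, 56.4 and 356 (-1.48), level beforehand and lower in KO cells afterwards. Fosl2 gave 268, 630.3, 562 and 621 (-1.27), higher in KO cells beforehand and level afterwards. Jdp2, a repressor of AP-1, gave 376, 88.2, 489 and 312 and was a damped fall (1.26, and 0.93 with normexp and quantile normalization). Batf itself gave 6933, 8465, 9715 and 22868, with responses of 0.77 and 1.53, and Batf3 gave 608, 1498, 2067 and 5701, with responses of 1.78 and 1.76, so neither was a member. Both were higher on the KO arrays after re-stimulation.

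Among 35 factors of T helper lineages measured, 8 had a lower KO response and none a higher one (22.9%, median -0.38). Irf1, the factor that carries the signal of interferon-γ, gave 13437, 26456, 24360.5 and 14158. It rose by 1.46 in WT cells and had a KO response of -0.48, a difference of -1.94, with -1.70 at a second probe. Eomes, a T-box factor of cytotoxic and memory cells, gave 283, 1039, 860.0 and 1096 (-1.71). Irf7 is given above, and Irf8 (-1.23), Stat4 (-1.10), Irf4 (-1.08) and Zbtb32 (-1.07) were nearer the limit, and Irf4 had -0.91 with normexp and quantile normalization. Tbx21, which specifies Th1 cells, had responses of 2.98 and 2.90, and Gata3, which specifies Th2 cells, of 0.86 and 0.17, neither of them a member.

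Of 25 cytokine receptor chains, 6 (24%) had a lower and none a higher response (median -0.26), and beside Il1r2, Il1rl1 and Ifngr1 these were Il7r, Il12rb1 and Il12rb2. Il7r, the survival receptor of resting T cells, gave 494, 616, 4164 and 2559.9 and stood higher on the KO array at both times (difference -1.20). Il12rb1, a chain shared by the receptors for IL-12 and IL-23, gave 4666, 10221, 19501 and 21342 (-1.18). Il12rb2, the chain particular to IL-12, gave 142, 266, 184 and 178 (-1.14, and -0.87 with normexp and quantile normalization).

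Of 25 costimulatory and inhibitory receptors and ligands, 7 (28%) had a lower and 1 a higher response (median -0.17). Havcr2, which encodes the inhibitory receptor Tim-3, gave 152, 5230.2, 1289.8 and 21961 (-1.20), higher on the KO arrays at both times. Its difference was -0.72 with normexp and quantile normalization. Cd274, which encodes the Pd-1 ligand Pd-l1, gave 193, 1659, 519 and 2219 (-1.19), and Pdcd1lg2, the other Pd-1 ligand, gave 55.3, 989, 205 and 1797 (-1.21). Both were higher on the KO arrays at each time, and Pdcd1lg2 had a difference of -0.45 with normexp and quantile normalization. Icos, a costimulator of the Cd28 family, gave 6925, 8658, 31998 and 20809, with responses of 0.80 and -0.32 (-1.12). Slamf6 (-1.23) and Entpd1, the ectonucleotidase Cd39 (-1.44), were the other lower ones beside Cd160. Ctla4, which competes with Cd28 for its ligands, went the other way. It gave 115, 209.6, 44.1 and 338, starting lower and ending higher in KO cells (responses 1.34 and 3.24, difference 1.89).

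Feedback regulators showed 5 lower and 0 higher responses of 24 (20.8%), with a median of -0.45. Rgs1, which shortens signalling by chemokine receptors, gave 652, 17430.3, 4852 and 24563 (-2.58). The phosphatases Dusp10 and Dusp14, which act on kinases of the MAP kinase pathways, gave 155, 514, 254 and 253 (-1.92) and 24.4, 92.9, 101 and 116 (-1.92). The KO responses were 0.29 for Dusp10 and 0.49 for Dusp14, against 2.21 and 2.41 in WT cells. Spry1 (-1.14) and Rgs16 (-1.03) were just past 2-fold. The values with normexp and quantile normalization were -0.63 for Dusp14 and -0.28 for Rgs16.

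Cholesterol and fatty acid synthesis was the group with the most damped falls. Of 31 genes measured, 24 fell at least 2-fold in WT cells and 16 in KO cells, 30 of 31 differences lay above 0, and 8 (25.8%, against 1.82% of all genes) were past 2-fold. The median difference was 0.71. The 8 were all damped falls, and Fdft1, Msmo1, Cyp51, Hmgcs1, Hsd17b7, Lss and Dhcr7 among them encode enzymes of the sterol pathway. Fdft1, the enzyme that commits the pathway to sterols, gave 6115, 605, 3693 and 1299 (difference 1.65). Hmgcs1, an early enzyme of the pathway, gave 35893, 3627, 24055 and 6739.7 (1.29), and Msmo1 gave 20641, 2310.2, 13458 and 4776 (1.48). In all 3 genes the KO signal was the lower one beforehand and the higher one afterwards.

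The enzymes with the smallest differences included Scd2 (-0.17), Elovl6 (0.15) and Idi1 (0.19). Srebf2 and Srebf1, which encode the factors that drive the pathway, had 0.38 and 0.15. Insig1, which holds those factors back when sterols are plentiful, had 0.14, and Sqle, at 1.00, was the gene just outside the limit. Before re-stimulation the median genotype difference of the list was -0.42 and after it 0.38. The letters TCACNCCA of the sterol response element, searched on both strands and chosen after the values were seen, were in a window of 3 of 21 of these genes (14.3%) and of 403 of 8735 genes measured (4.61%). The matches of the 2 members among them are shown in capitals, with the AP-1 letters also in capitals in Msmo1, at chr8:64733684-64733770 (- strand) and chr13:119690199-119690236 (+ strand).
Msmo1: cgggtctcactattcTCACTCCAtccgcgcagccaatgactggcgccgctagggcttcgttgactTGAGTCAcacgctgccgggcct
Hmgcs1: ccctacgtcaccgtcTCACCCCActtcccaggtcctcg

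Amplified rises were fewer and were not gathered in the lists. Of the 77, 43 were at least 2-fold higher on the KO array after re-stimulation and 17 lower before it, with median responses of 0.34 in WT and 1.84 in KO cells, and 4 were on a list (Ctla4, Il18, Nupr1 and Gpt2). Calcrl, which encodes a receptor for the peptides CGRP and adrenomedullin, gave 480.2, 351, 996 and 6110.4 and responses of 0.03 and 2.92 (difference 2.89). Sdc1, the heparan sulphate proteoglycan syndecan-1, gave 31.8, 63.7, 26.0 and 419 (2.82). Akr1c18, an aldo-keto reductase that inactivates progesterone, gave 125, 157, 133 and 1249 (2.72), with nearly equal signals in the 2 genotypes before re-stimulation.

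C3, the central component of complement, gave 439.7, 938, 165 and 2447 (2.62), lower in KO cells beforehand and higher afterwards. Zfp704, a zinc finger gene, gave 21.9, 18.5, 19.1 and 103 (2.49) and was near background on 3 arrays. Cstdc5, of the stefin A family of protease inhibitors, gave 16.5, 19.3, 108 and 642 (2.16), higher on the KO arrays at both times. Nupr1, a stress-induced chromatin protein and the one member among 38 genes of the amino acid response, had 1.69, and Gpt2, which makes alanine and 2-oxoglutarate from glutamate and is the one member among 22 genes of glutamine metabolism, had 1.01, at the limit, and 0.97 under scaling to Cd3e. The medians of those lists were 0.26 and 0.07.

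Damped falls beyond the sterol genes were led by Mcemp1 and Cd248. Mcemp1, named for its expression in mast cells, gave 321, 21.7, 308 and 195 and was equal in the 2 genotypes beforehand (-0.05), with responses of -3.41 in WT and -0.36 in KO cells (3.05). The part of the mast cell and basophil markers given above in this difference was not tested. Cd248, the surface protein endosialin, gave 1028, 31.0, 133 and 23.8 (2.38, and 3.29 at a second probe), with a KO level already low before re-stimulation. Snai3, a zinc finger factor of the Snail family, gave 119, 35.5, 41.6 and 67.3 (2.26). Vcl, which encodes the adhesion protein vinculin, gave 124, 29.1, 71.0 and 87.5 (2.21). In both the KO array was the lower one beforehand and the higher one afterwards. Plekhh3 had 2.10 and Hid1 2.07. Mycn was the member among 38 Myc targets and ribosome biogenesis genes (1.84), a list whose median was -0.06. Of the 91 damped falls, 69 changed by less than 2-fold on the KO arrays.

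Amplified falls included genes of resting and recirculating T cells. Of 21 naive and quiescence genes measured, 4 (19%) had a lower and none a higher KO response (median -0.32), and 3 of the 4 were amplified falls. S1pr1, the receptor through which lymphocytes leave lymphoid organs, gave 3856, 499.6, 2166 and 72.1 and had responses of -2.47 in WT and -4.61 in KO cells (difference -2.14), so that it fell in both and further in KO cells. Pik3ip1, an inhibitor of phosphoinositide kinase signalling, gave 1915, 465, 1301 and 130.0 (-1.46), and Cdkn1b, the cell cycle inhibitor p27, gave 777, 443, 693 and 199.5 (-1.17, and -0.91 with normexp and quantile normalization). The fourth, Il7r, is given above.

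Card6, of the caspase recruitment domain family, gave 3941, 2041, 2736 and 309.7 (-2.37) and was lower on the KO array after re-stimulation. Dmbt1, which encodes a secreted scavenger receptor, had another pattern with 20.5, 20.8, 174 and 27.3 (-2.87). It was near background on 3 arrays, so its difference rests on KO (-) alone. The signals of Meiob, a gene of meiosis, were 35.1, 33.4, 176 and 29.2 (-2.70), and those of Acvr2a, an activin receptor, were 18.9, 26.9, 102 and 32.2 (-2.36), and both were likewise highest on KO (-). Acvr2a had -0.83 with normexp and quantile normalization. Myo6 had -2.08 at its brighter probe and 0.44 at its other probe, so its direction depended on the probe. Of 29 glycolysis and hypoxia genes the lactate exporter Slc16a3 (-1.12), Pdk1 (-1.11) and Ankrd37 (-1.14) were lower and none was higher (median -0.12). The other probe of Pdk1 gave -0.63, and its difference was -0.87 as the mean over probes and -0.57 with normexp and quantile normalization.

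Trim9 and Klrb1f moved past 2-fold in opposite directions in the 2 genotypes. Trim9, a ubiquitin ligase best known from neurons, gave 180.3, 51.3, 32.7 and 103, with responses of -1.33 in WT and 1.96 in KO cells (difference 3.29, the highest of all). Klrb1f, of the family of Nkrp1 receptors, gave 34.9, 98.5, 59.9 and 20.0 and rose by 1.98 in WT cells, with a KO response of -1.28 (difference -3.26). All 4 signals of both genes lay below the 75th percentile of their array. Klrb1f was close to background on KO (+), where the lowest signal well above background was 17.2.

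Th2 genes themselves were mostly higher on the KO arrays at both times. Of 14 measured, 12 were at least 2-fold higher before and 9 after re-stimulation. The median genotype differences of the list were 2.20 and 2.05, against -0.006 and 0.013 over all genes measured. A lower response was seen in 2, Il1rl1 and Igfbp7 (14.3%, against 3.00% of all genes). A higher one was seen in 1, Epas1 (7.14%, against 1.82%). Il4 gave 752, 10876, 5239 and 148258, with responses of 4.34 and 5.12 and a difference of 0.79. Il13 gave 23.2, 372, 104 and 2530.1, with a difference of 0.43. That of Il13, which was dim on WT (-), lay between 0.39 and 1.58 in the alternatives, so whether it was a member depended on the processing. For Il4 the genotype difference was 2.81 before and 3.59 after re-stimulation. Igfbp7, a secreted binding protein for insulin-like growth factors, gave 423, 1428, 139 and 178 (-1.58) and was lower on the KO arrays, and Epas1, a hypoxia-inducible factor, gave 748, 479, 3521 and 5423 (1.09, and 0.97 with normexp and quantile normalization). The median of the list, -0.23, was above 0 in 2 of the alternatives.

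**Figure D5:**
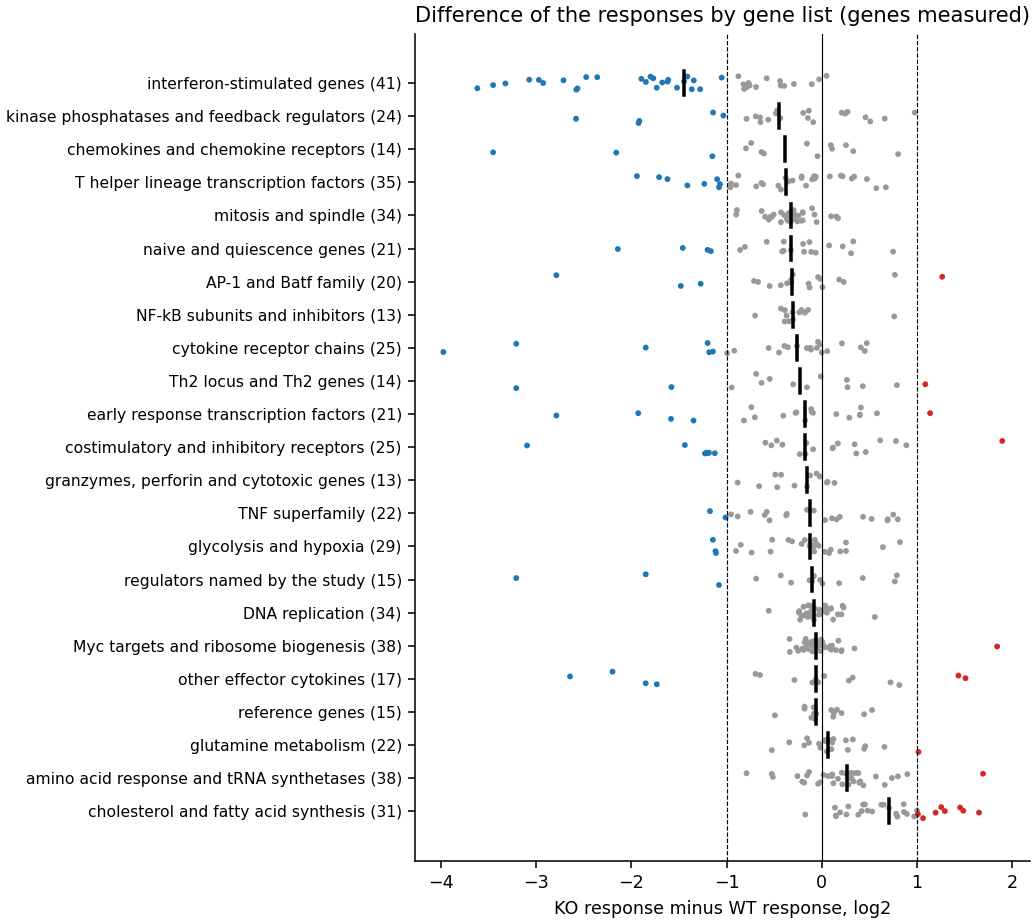
Difference of the responses (x axis, KO response minus WT response, log2) for every measured gene of 23 lists, 1 point per gene and list, ordered by the list median (black bar), with the number measured in parentheses. Dashed lines mark 2-fold, with lower responses in blue and higher ones in red. The interferon-stimulated genes (median -1.45) and cholesterol and fatty acid synthesis (median 0.71) lie at the ends of the order.

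None of 13 granzyme, perforin and cytotoxic genes (median -0.16), 13 NF-kB subunits and inhibitors (-0.31), 34 DNA replication genes (-0.08), 34 mitosis and spindle genes (-0.33) or 15 reference genes (-0.06, and above 0 under quantile normalization) was past 2-fold. The mitosis genes lay below 0 in 31 of 34 cases and the NF-kB genes in 12 of 13, both by less than 2-fold. Of 22 TNF superfamily genes, Tnfrsf1b (-1.17) and Tnfrsf26 (-1.01) were members, and the list median was -0.12. Tnfrsf1b had -0.56 at its other probe and -0.87 as the mean over probes, and Tnfrsf26 came within 2-fold under median scaling and had -0.68 with normexp and quantile normalization, so neither was a member throughout. Of 15 regulators and cytokines that the study itself names, a choice not independent of these samples, 3 had a lower response (Il1rl1, Ifng and Irf4) and none a higher one, with a median of -0.10. Stat6 was not among the 3, with -0.10 at its brightest probe, but had -1.29 and -0.21 at its 2 other probes. Together the 23 lists held 516 measured genes and 88 of the 521 members, and 433 members were on none.

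Many cytokine genes have signals but no difference, because a probe was not well above background on every array. Il2 gave 17.5, 37529.8, 5.72 and 33743, of which the KO (-) value was not above background. Il3 gave 4.28, 191531, 3.42 and 241779, above background only after re-stimulation. The other cytokine signals were 4.81, 16.8, 329 and 2199.8 for Il5, 9.98, 104, 378 and 6754 for Il10, 3.35, 85.4, 23.0 and 7938 for Il6 and 3.91, 23.4, 4.45 and 469 for Il21. All 4 were brightest on the KO (+) array and below background on WT (-). Among inducible factors and chemokines, the signals were 3.09, 238, 3.39 and 97.6 for Egr3, 9.37, 458, 7.25 and 148 for Fosb, 13.3, 39967, 106 and 70342 for Ccl3 and 16.4, 134758, 28.4 and 136840.0 for Ccl1. Foxp3, the factor of regulatory T cells, was above background on the WT arrays alone, with 50.8, 19.5, 4.12 and 4.37.

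The spread between probes within the same arrays gives the only measure of error here, and it does not include differences between mice, cultures or hybridizations. In 3852 genes with several usable probes the median SD of the difference was 0.105, against an SD of 0.466 over all genes. Of the 521 members, 98 had another usable probe. All other probes had the same sign in 95 of these and were past 2-fold in 66, and 3 genes (Myo6, Hspa2 and Syne2) had a probe of opposite sign. The remaining 423 rested on 1 probe. Dim genes were members more often. The share past 2-fold was 8.29% in the 2703 genes with the lowest mean signal and 2.40% in the 2703 brightest, and of the brightest 2703 genes 54 were lower and 11 higher. Il1r2 and Cxcl10 were dim on WT (-), at 22.9 and 22.6, where the lowest signal well above background was 15.1. Mcemp1 was dim on WT (+), at 21.7, where that signal was 14.5. With normexp and quantile normalization Il1r2 had -2.16, Cxcl10 -1.69 and Ifit1 -2.17.

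At the limit itself, the nearest members were Krtap16-3 and H1f2 on the lower side and Gga2 and Slc66a2 on the higher side. The nearest genes outside it were Rasgrp1, Rad54l2, Dmac2l and Sqle. Rasgrp1, which couples the TCR to Ras, gave 8172, 2798, 8698 and 1689 and Gga2 gave 436, 125, 402 and 263, the first just outside and the second just inside. The limit therefore parts genes of nearly equal difference.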

How the data were processed

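Total RNA was labelled with Cy3 and hybridized to 1-colour Agilent whole mouse genome arrays, 4 arrays in all. The authors deposited the scanner output of Agilent Feature Extraction 10.7 (per the submitters' processing notes), in which the processed signal is an intensity after background subtraction, and a table of log2 values that the authors had scaled. When set against the scanner intensities, those log2 values equalled the log2 signal less the 75th percentile of the array for 41001 or more of the 41173 probes of any array (tolerance 0.01), so their scale and direction are known from the files, and no centring of genes was seen. The study's text gives no further array processing.

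Here control spots and spots marked as uneven or as outliers (107 to 120 per array) were left out, spots of a probe were averaged, and the log2 of each intensity was taken relative to the 75th percentile of all non-control probes on that array. A gene was represented by its brightest probe (27479 of 41173 probes carry 1 gene symbol) and kept when that probe was well above background on all 4 arrays. A gene was in a class when its response in 1 genotype was at least 2-fold and the difference at least 2-fold. Genes named are the 15 at each end, the 6 largest of each class and list, the study's regulators, those nearest the limit and the defining markers, plus a few list genes given for contrast. The members, the gene lists and the motifs were chosen with earlier results of these data known. Some genes counted in the lists are not reported here by name. Alternatives covered scaling, background correction, probe choice, filters and the limit. Calculations used Python 3.11.15, numpy 2.4.6 and pandas 2.3.3, with limma 3.58.1 in R 4.3.3 for normexp correction, and were tested on simulated data.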

Additional observations from a re-analysis of the deposited data

Results flagged for a closer look

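In 2 genes the single arrays moved past 2-fold in opposite directions in the 2 genotypes. The KO response minus the WT response was 3.29 for Trim9, which was lower after re-stimulation in WT and higher in KO cells, and -3.26 for Klrb1f, which was higher after re-stimulation in WT and lower in KO cells. The difference was not tested, since each condition has 1 array. With normexp correction (offset 50) and quantile normalization together the values were 1.76 for Trim9 and -1.23 for Klrb1f. Klrb1f was close to background on KO (+), with a signal of 20.0.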

How the results depend on the processing

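No paired analysis was possible because each condition has 1 array, and no array could be left out. Each setting changes 1 choice except the first below, which changes background correction and normalization together, and the cause was not tested except where stated. Normexp correction (offset 50) with quantile normalization gave 179 lower and 87 higher genes, with 103 damped rises, 37 amplified rises, 33 damped falls and 51 amplified falls, and list medians of 0.12 for Th2 genes (turned in sign), -0.24 for chemokines, -0.20 for the AP-1 family, -0.18 for feedback regulators and -0.20 for T helper factors. Of 94 named genes past 2-fold, 21 came within it there, and no more than 3 did in any other alternative at the 2-fold limit. Sizes there were -2.01 for Il1rl1 and Serpinf1, -1.27 for Ccl4, -1.66 for Penk, -0.76 for Csf1, -1.01 for Egr1, -1.37 for S1pr1, 1.06 for Ctla4, 1.54 for Mcemp1, 1.07 for Zfp704 and -1.32 for Dmbt1. Quantile normalization alone gave medians of -0.10 for Th2 genes and 0.068 for reference genes. The mean over probes gave -0.29 for early factors and -0.32 for feedback regulators, and the probe with the smallest difference gave -0.32 for feedback regulators, 0.59 for cholesterol synthesis and 0.44 for Myo6 (turned in sign). Without filter or floor, which adds genes below background, 1451 genes were lower and 1285 higher, with 868 damped rises, 744 amplified rises, 333 damped falls and 297 amplified falls, and medians of 0.28 for effector cytokines, -0.14 for cytokine receptors and -0.19 for naive genes. Asking for 1 array of each genotype above background gave 309 higher genes, 139 amplified rises and -0.61 for chemokines. The brighter genes alone, fewer by construction, gave 125 lower and 37 higher genes, 71 damped rises, 11 amplified rises, 18 damped falls and 40 amplified falls, with medians of 0.049 for Th2 genes and 0.031 for chemokines (both turned in sign), -0.14 for cytokine receptors, -0.040 for the AP-1 family, -0.19 for naive genes and 0.86 for cholesterol synthesis. At 3-fold, 98 genes were lower and 52 higher, with 64 damped rises, 24 amplified rises, 13 damped falls and 16 amplified falls.

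Lower genes were 62.2% of members, 57.4% to 66.6% under the other scalings, 67.3% with normexp and quantile normalization and 77.2% among the brighter genes. Scaling moved the median difference of all genes by under 0.05, but the median WT response from -0.34 (median scaling) to 0.25 (scaling to Cd3e). Of 276 list medians in the alternatives, 255 moved by less than 0.105, the median SD between probes of a gene, 18 moved further and 3 turned in sign, and of 1516 values of named genes 1388, 127 and 1 did. With 1 array per condition, the signal over background and the probe limit what the data show. Genes near background have the widest differences, and no value here carries an error between samples.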

Other observations

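Some gene families outside the lists, chosen by symbol after their values were seen and given with no test, had responses that differed in 1 direction. Of 28 histone genes measured, 9 had a lower and 1 a higher response on the KO arrays, 27 lay below 0, and the median difference was -0.68 (median genotype difference 0.01 before and -0.81 after re-stimulation). Near-identical histone copies can share a probe's signal. H1f1, a linker histone, gave 785, 2360.4, 992 and 518 (-2.71), H1f3 had -1.95 and H2ac8 -1.80, and H1f8, a linker histone of oocytes, was the higher one (1.35).

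All 3 genes of the cystatin A family that were measured had a higher response, and these related protease inhibitors were higher on the KO arrays at both times. Csta2 gave 76.5, 93.3, 957 and 5317 (2.01), Csta1 gave 24.5, 37.4, 302 and 2001 (1.94) and Cstdc5 is given above. Of 4 metallothionein genes, Mt2 (-2.10) and Mt1 (-1.71), which bind zinc and copper, were lower. Gbp8 and Gbp9, which were not on the interferon list, were lower like the 6 Gbp genes that were. Of 5 Toll-like receptor genes, Tlr1, Tlr6 and Tlr7 had a lower response. Among single genes of other roles, Srxn1, an enzyme of the oxidative stress response, had -1.94, and Epha2, an ephrin receptor, -2.49. Of 48 olfactory receptor genes measured, 8 had a lower response, none a higher one and 39 lay below 0, with a median of -0.29. Over all genes measured 3.00% had a lower response, and 8.29% of the dimmest 2703 were past 2-fold in either direction. The mean signal of the olfactory receptor genes went down to 19.9, near background. These genes are seldom expressed in T cells.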
